A study of Mus musculus with 12 samples.

Results

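The expression of 36 astrocyte genes was examined in the medial prefrontal cortex of 2 inbred mouse strains, with and without chronic restraint stress. The genes were taken by name from a list of known astrocyte transcripts, and all 36 were found among the 55678 gene names of the deposited table. One strain was C57BL/6JmsSlc, called B6 here, and the other was BALB/cCrSlc, called BALB/c. Mice with chronic restraint stress (CRS) spent 6 h per day in a restrainer for 21 days, and control mice were handled without being restrained. Each of the 4 groups held 3 libraries, with animals 2, 3 and 9 as B6 controls, 12, 13 and 14 as B6 CRS, 5, 9 and 10 as BALB/c controls, and 12, 13 and 15 as BALB/c CRS. All mice were 9 to 10 weeks old, had gone through behavioural tests and gave a 1.5 mm punch of cortex, and neither strain carried a transgene in the labels. The labels do not give sex, litter or sequencing batch. Where 1 animal is 1 library, the p-values weigh a difference against the spread between these libraries.

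Astrocytes are the glial cells that clear glutamate and potassium released by neurons, supply neurons with metabolites and lipoproteins, and wrap blood vessels with endfeet. They are coupled into networks by gap junctions, and their endfeet hold water and potassium channels. Reduced levels of several astrocyte proteins in the frontal cortex are a known feature of rodent stress models.

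Values are TPM, a transcript level per unit of length that adds up to the same total in each library, summed over the rows of a gene. All 36 genes passed the filter of at least 1 TPM in at least 3 libraries, as did 16423 genes in all. A library held 14805 to 15542 genes at 1 TPM or more, and mitochondrial transcripts took 17.35% to 23.88% of TPM. The 18S ribosomal RNA gene was at 3.972% in replicate 12 of BALB/c CRS, with at most 0.1688% elsewhere. Markers of myelin and of striatal neurons differed between the libraries. The summed level of 10 myelin genes was 2598 to 9961 TPM in B6 and 490.7 to 3168 TPM in BALB/c, and that of 8 genes of striatal neurons was 216.5 to 2830 TPM in B6 and 117.7 to 395.3 TPM in BALB/c. Because these are bulk samples, fewer astrocytes and less RNA per astrocyte cannot be told apart.

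The defining astrocyte genes were present in every library. The lowest values in any library were 31.5 TPM for Gfap, the astrocyte intermediate filament, 19.5 TPM for Aldh1l1, a folate enzyme, 16.2 TPM for Aqp4, the endfoot water channel, and 265 TPM for Slc1a2, the main glutamate transporter. Apoe, the apolipoprotein of brain lipoproteins, had the highest level of the 36, with 1801 to 2878 TPM. Plcd4, a phospholipase C, had the lowest, with 4.10 to 9.34 TPM. The coefficient of variation between the 3 libraries of a group had a median over the 36 genes of 12.7% in B6 controls, 8.64% in B6 CRS, 8.05% in BALB/c controls and 12.5% in BALB/c CRS. Gfap was the most variable gene in 3 of the 4 groups, at 62.1% in B6 controls, 43.7% in BALB/c controls and 31.1% in BALB/c CRS. Fjx1, a Golgi-resident signalling regulator, was the most variable in B6 CRS at 38.6%. BALB/c CRS replicate 12, the library rich in 18S RNA, had the lowest value of its group for 32 of the 36 genes, and B6 CRS replicate 13 had the lowest for 29.

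**Figure D1:**
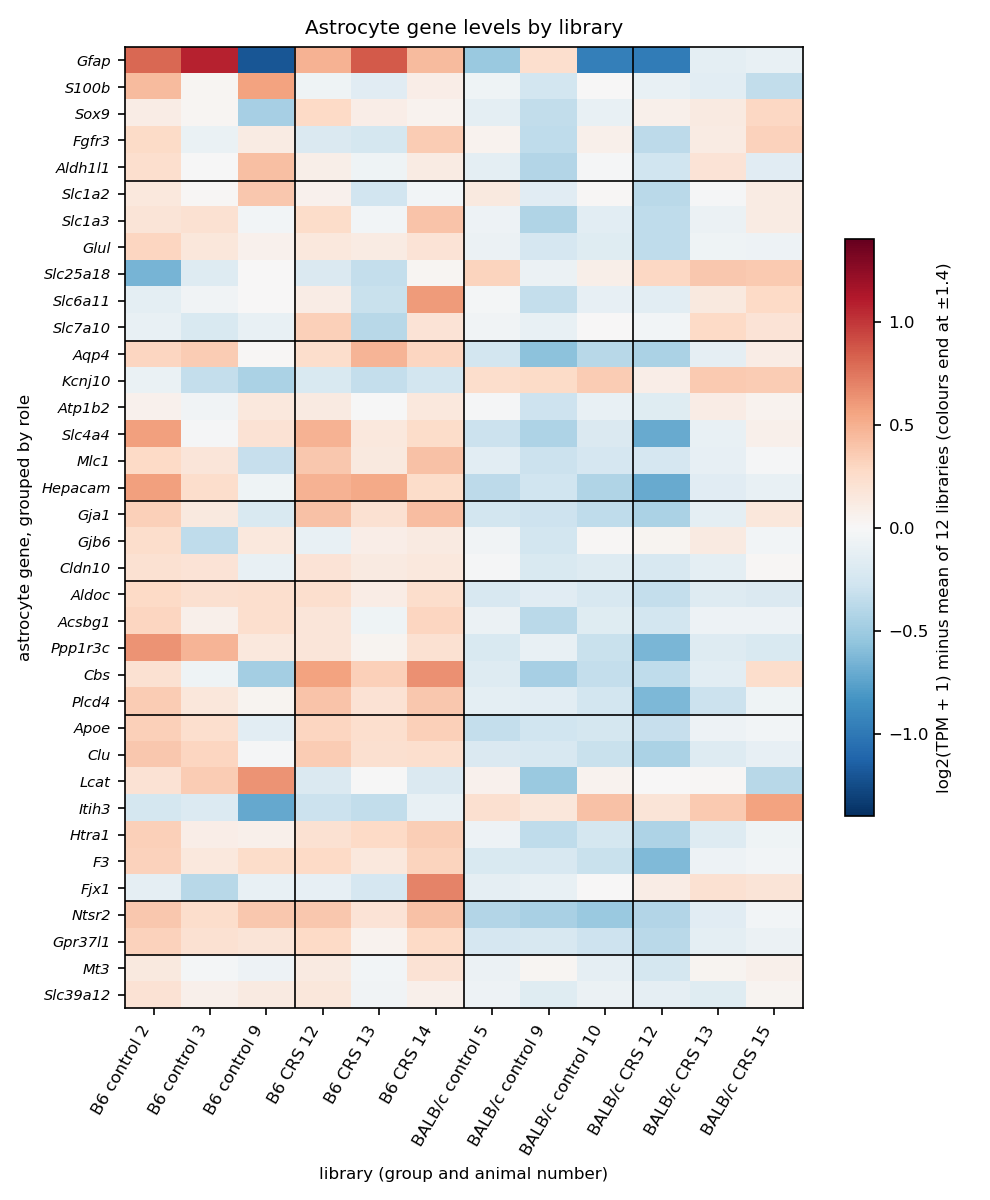
Levels of the 36 astrocyte genes in the 12 libraries. Rows are genes grouped by role and columns are libraries grouped by strain and treatment. Colour shows log2(TPM + 1) minus the mean of the gene over the 12 libraries. The BALB/c columns are mostly blue (below the mean) and the B6 columns mostly red, with Kcnj10, Itih3 and Slc25a18 the other way round.

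The first comparison asked how the astrocyte genes differ between the strains, averaged over control and CRS. In BALB/c 16 of the 36 genes were lower and 3 were higher than in B6 at an adjusted p under 0.05 (limma on log2(TPM + 1), Benjamini-Hochberg over all tested genes). Of all tested genes, 14.3% were called lower and 4.05% higher, or 18.4% in either direction. The median difference of the 36 genes was -0.32 on the log2 scale, against -0.08 for all tested genes, and 31 of the 36 lay below 0, against 63.8% of all tested genes. In 11 genes all 6 BALB/c libraries lay below all 6 B6 libraries, and in 2 genes, Kcnj10 and Itih3, all 6 lay above. The same separation was seen downward in 6.94% and upward in 2.01% of all tested genes. Under median-of-ratios scaling 15 were called lower and 3 higher, while the share of lower calls among all called genes went from 77.99% to 53.91% and the median of all genes from -0.08 to 0.00. The median of the 36 genes was then -0.23.

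**Figure D2:**
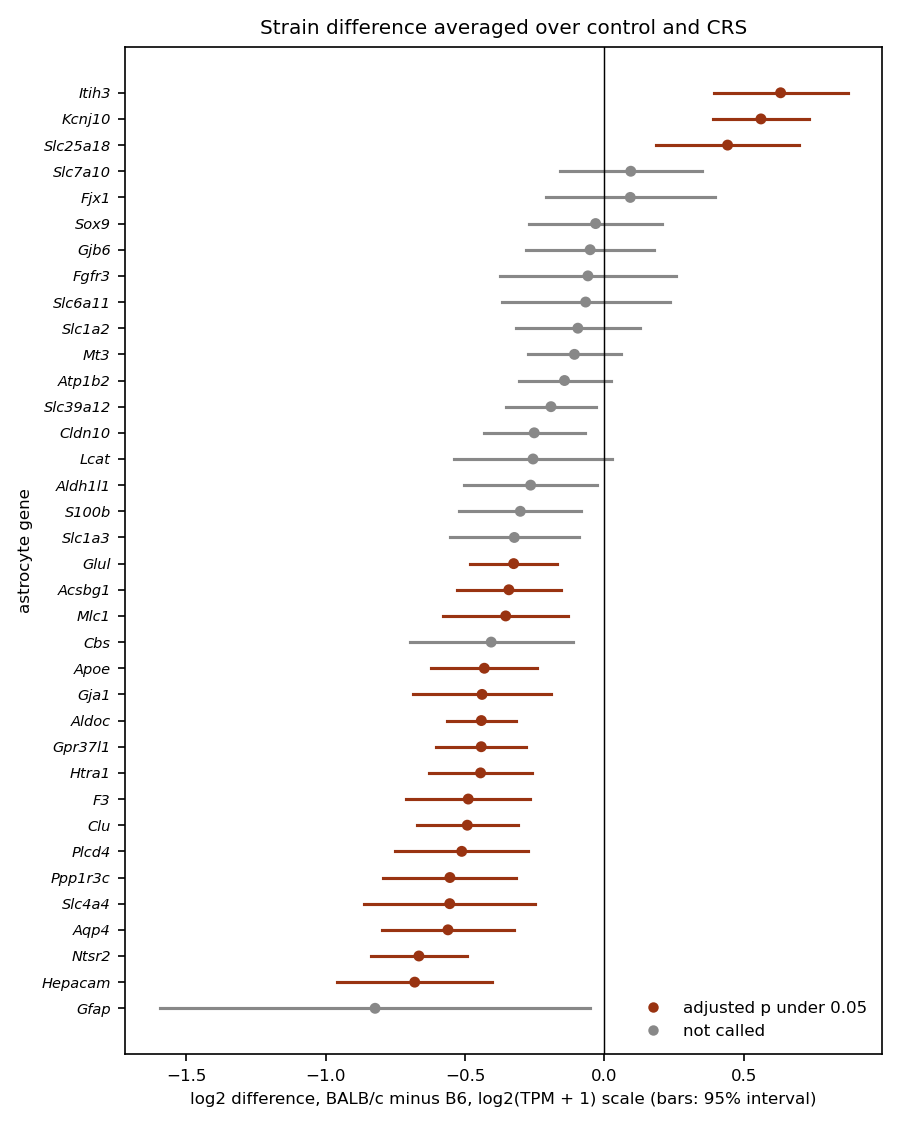
Strain difference of each astrocyte gene averaged over control and CRS. The horizontal axis is the log2 difference, BALB/c minus B6, on the log2(TPM + 1) scale with its 95% interval, and coloured points passed an adjusted p under 0.05. The called lower genes lie between -0.33 and -0.68, Kcnj10, Itih3 and Slc25a18 lie at 0.44 or above, and Gfap has the widest interval.

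The 2 genes grouped by role as receptors were both called lower in BALB/c, against 14.3% of all tested genes. Fgfr3, a receptor grouped with the identity genes, was not called. Ntsr2, a neurotensin receptor found on astrocytes, lies on chromosome 12 (GRCm38 chr12:16653382-16660227, plus strand). It measured 84.7, 77.2 and 84.7 TPM in B6 controls and 84.7, 74.2 and 86.2 TPM in B6 CRS. In BALB/c it measured 48.6, 46.9 and 45.0 TPM in controls and 48.3, 57.8 and 63.0 TPM in CRS. The highest BALB/c library thus stayed under the lowest B6 library, and the averaged difference was -0.67 (SE 0.08, 95% interval -0.84 to -0.49, adjusted p = 0.000127), the lowest p of the 36. Gpr37l1, an orphan receptor linked to prosaposin and present on astrocytes, had a median of 112 TPM in B6 (98.1 to 119) and of 80.8 TPM in BALB/c (72.7 to 89.6). Its difference was -0.44 (SE 0.07, adjusted p = 0.00186), with no overlap between the strains.

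Of the 5 genes grouped as metabolic, with the phospholipase C Plcd4 among them, 4 were called lower in BALB/c and none higher. The shares of all tested genes were 14.3% and 4.05%. Aldoc, the brain form of the glycolytic enzyme aldolase (chr11:78322968-78327781, plus strand), was the most evenly separated. It measured 647, 625 and 630 TPM in B6 controls, 627, 573 and 634 TPM in B6 CRS, 456, 477 and 458 TPM in BALB/c controls and 424, 469 and 464 TPM in BALB/c CRS. Its averaged difference was -0.44 (SE 0.06, adjusted p = 0.000255). Ppp1r3c, a glycogen-targeting subunit of protein phosphatase, ranged from 18.7 to 28.7 TPM in B6 and from 11.3 to 16.9 TPM in BALB/c, a difference of -0.55 (SE 0.11, adjusted p = 0.00509). Plcd4 ranged from 7.10 to 9.34 TPM in B6 and from 4.10 to 6.53 TPM in BALB/c, and Acsbg1, which activates long-chain fatty acids, from 58.1 to 74.9 TPM and from 46.2 to 57.3 TPM. Neither overlapped between the strains, and both were called, at -0.51 and -0.34. Cbs, the enzyme that makes cystathionine from homocysteine, was not called, with a difference of -0.41 (95% interval -0.70 to -0.11, adjusted p = 0.0545).

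The genes of water, ion and pH balance went in both directions. Kcnj10, the inwardly rectifying potassium channel that takes up extracellular potassium (chr1:172341210-172374085, plus strand), was higher in BALB/c. It measured 54.6, 46.0 and 42.8 TPM in B6 controls and 50.2, 46.0 and 48.5 TPM in B6 CRS. In BALB/c it measured 69.5, 70.8 and 74.9 TPM in controls and 62.5, 75.5 and 74.7 TPM in CRS, so that every BALB/c library lay above every B6 library. The difference was 0.56 (SE 0.08, 95% interval 0.39 to 0.73, adjusted p = 0.000571). Aqp4, which shares the endfoot membrane with Kcnj10, was lower in BALB/c. It measured 30.6, 31.9 and 24.9 TPM in B6 controls, 29.6, 34.6 and 30.5 TPM in B6 CRS, 20.5, 16.2 and 18.6 TPM in BALB/c controls and 17.9, 22.6 and 26.7 TPM in BALB/c CRS. BALB/c CRS replicate 15 lay above B6 control replicate 9, and the difference was -0.56 (SE 0.11, adjusted p = 0.00457).

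Hepacam, an adhesion protein of astrocyte junctions that binds the membrane protein Mlc1, showed the largest called difference among the 16 lower genes. Its level was 36.0 to 56.7 TPM in B6 and 22.7 to 35.0 TPM in BALB/c, a difference of -0.68 (SE 0.13, adjusted p = 0.00391). Slc4a4, a sodium bicarbonate cotransporter, was also lower at -0.56 (SE 0.14), from a median of 37.8 TPM in B6 to 26.8 TPM in BALB/c. Mlc1 itself was at the edge of the threshold, at -0.35 (SE 0.10, adjusted p = 0.0332), with a B6 control replicate 9 value of 67.5 TPM under all BALB/c libraries (68.1 to 83.4 TPM). Its call was kept in 4 of 12 fits that each left out 1 library, with differences of -0.45 to -0.30, and was lost without B6 control replicates 2 or 3, B6 CRS replicates 12 or 14, BALB/c control replicates 9 or 10, and BALB/c CRS replicates 12 or 13. It was also lost under median-of-ratios scaling (-0.26, adjusted p = 0.101). Atp1b2, the beta subunit of the astrocyte sodium pump, was not called at -0.14 (95% interval -0.31 to 0.02).

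The promoter sequences of Ntsr2, Aldoc and Kcnj10 are shown because these were the members of lowest p in each direction for which at least 100 bases before the start could be read. Each is the part of the 250 bases before the RefSeq start (RefSeq, GRCm38.p6) that also precedes the gene's first base in the GENCODE M21 annotation, written 5′ to 3′ on the gene's strand. Capitals mark the E-box CACGTG in Ntsr2 (chr12:16653220-16653381, bases 99 to 104 of the 162 shown) and the nuclear factor I half-site TTGGCA in Aldoc (chr11:78322823-78322967, bases 105 to 110 of the 145 shown, from the first of its 2 RefSeq windows). The 250 bases before Kcnj10 (chr1:172340960-172341209) held none of the 7 motifs searched and are in lower case.
Ntsr2: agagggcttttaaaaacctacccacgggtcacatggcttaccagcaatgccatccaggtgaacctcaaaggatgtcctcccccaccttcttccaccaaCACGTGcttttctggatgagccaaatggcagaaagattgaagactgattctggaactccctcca
Aldoc: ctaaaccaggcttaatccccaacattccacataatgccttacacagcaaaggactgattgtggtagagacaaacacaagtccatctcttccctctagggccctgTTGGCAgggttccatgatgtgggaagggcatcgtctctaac
Kcnj10: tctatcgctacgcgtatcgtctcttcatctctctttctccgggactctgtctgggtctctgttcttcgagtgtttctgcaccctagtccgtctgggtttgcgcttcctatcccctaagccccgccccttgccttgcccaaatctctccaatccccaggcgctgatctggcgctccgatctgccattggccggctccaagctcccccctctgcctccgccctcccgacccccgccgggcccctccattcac
RefSeq windows were found for 31 of the 36 genes, 38 windows in all, and were searched on both strands against 32851 windows of all genes. The search covered the full 250 bases of each window, so it includes bases not printed above and the other window of Aldoc. The nuclear factor I half-site TTGGCA was in 4 of the 38 windows (Apoe, Hepacam, S100b and Aldoc) and in 12.3% of all windows, and the E-box CACGTG in 3 (Ntsr2, Cbs and Ppp1r3c) and in 6.02%. The STAT-type motif TTCNNNGAA was in 4 (Acsbg1, Aldoc, Ntsr2 and Slc1a3, 7.02% of all windows), the hormone response core ACANNNTGT in 4 (5.84%), TATAAA in 4 (12.4%) and the SOX motif AACAAT in 1 (9.42%). The full nuclear factor I palindrome, which contains most of the half-site, was in none (0.0365%). The windows describe the reference sequence, and the BALB/c sequence was not used here.

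Among lipoproteins and secreted proteins 4 of 7 genes were called lower and 1 higher in BALB/c, against 14.3% and 4.05% of all tested genes. Clu, the chaperone-like apolipoprotein clusterin, measured 816, 770 and 619 TPM in B6 controls and 802, 730 and 739 TPM in B6 CRS. In BALB/c it measured 546, 534 and 505 TPM in controls and 461, 552 and 577 TPM in CRS. It did not overlap between the strains, and its difference was -0.49 (SE 0.08, adjusted p = 0.00205). Htra1, a secreted serine protease, ranged from 102 to 123 TPM in B6 and from 72.0 to 93.5 TPM in BALB/c, and F3, the coagulation receptor tissue factor, from 29.3 to 33.2 TPM and from 16.8 to 25.7 TPM. Both were called, at -0.44 (adjusted p = 0.00425) and -0.49 (adjusted p = 0.00691). Apoe had a median of 2739 TPM in B6 and of 1899 TPM in BALB/c and a called difference of -0.43 (SE 0.09), but B6 control replicate 9, at 2062 TPM, fell within the BALB/c range.

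Itih3, a heavy chain of the inter-alpha-trypsin inhibitors that stabilise the hyaluronan matrix (chr14:30908572-30923760, minus strand), was the secreted protein that was higher in BALB/c. It measured 17.9, 18.7 and 12.6 TPM in B6 controls, 17.2, 16.7 and 19.9 TPM in B6 CRS, 25.2, 24.0 and 28.8 TPM in BALB/c controls and 24.5, 27.8 and 32.1 TPM in BALB/c CRS. All BALB/c libraries lay above all B6 libraries, and the difference was 0.63 (SE 0.11, 95% interval 0.39 to 0.87, adjusted p = 0.00244). Lcat, which esterifies cholesterol on lipoproteins, and Fjx1 were not called, at -0.26 (95% interval -0.54 to 0.03) and 0.09 (-0.21 to 0.40).

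**Figure D3:**
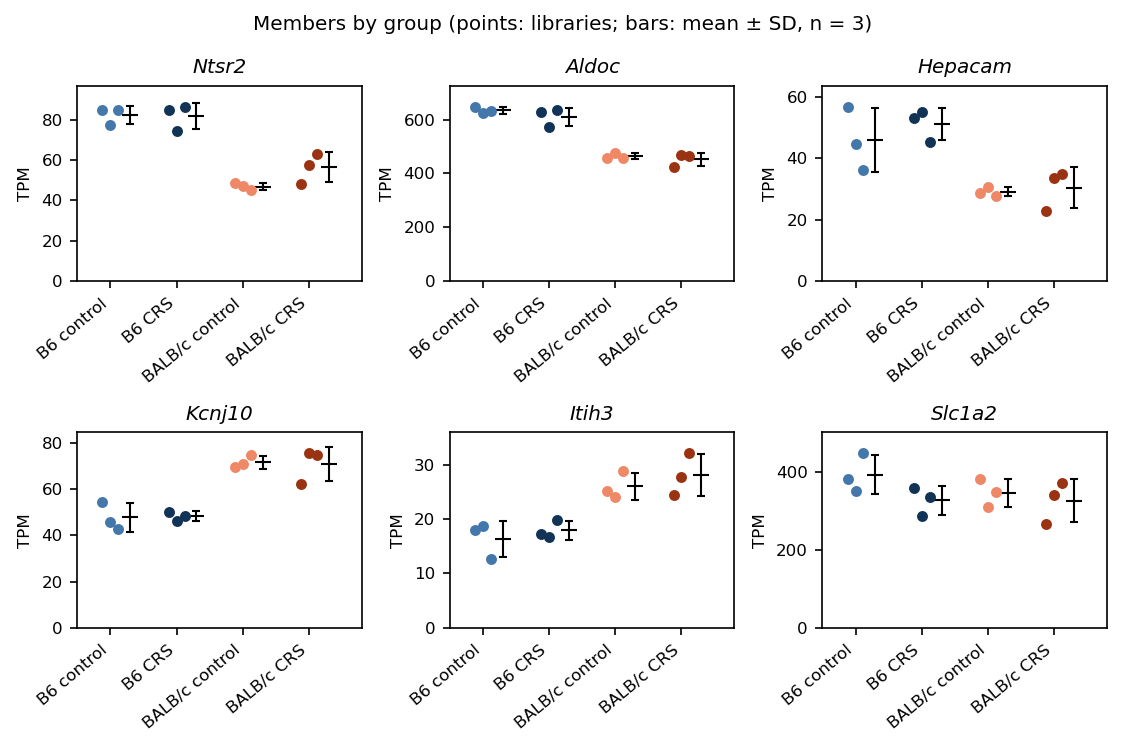
TPM of 6 astrocyte genes in the 4 groups. Points are libraries, and bars are the group mean and SD (n = 3), on linear axes from 0. Ntsr2, Aldoc and Hepacam are lower and Kcnj10 and Itih3 higher in the BALB/c groups, while the 4 groups of Slc1a2 overlap between 265 and 448 TPM.

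Of the 6 genes of transmitter uptake and recycling 1 was called lower and 1 higher in BALB/c. Of all tested genes 14.3% were called lower and 4.05% higher, and counts this small do not set the role apart from them. Slc1a2 measured 382, 350 and 447 TPM in B6 controls, 359, 287 and 336 TPM in B6 CRS, 381, 310 and 348 TPM in BALB/c controls and 265, 342 and 372 TPM in BALB/c CRS. The groups overlapped, and the strain difference was -0.10 (SE 0.10, 95% interval -0.32 to 0.13, adjusted p = 0.563). Slc1a3, the other main astrocyte glutamate transporter, had medians of 232 TPM in B6 and 187 TPM in BALB/c and a difference of -0.32 (95% interval -0.55 to -0.09, adjusted p = 0.0537), which did not pass the threshold. Glul, the glutamine synthetase that turns glutamate into glutamine, was lower in BALB/c, with 875 to 1038 TPM in B6 and 656 to 806 TPM in BALB/c and no overlap (-0.33, SE 0.07, adjusted p = 0.00949). Of the 36 genes Glul was the only one with near-identical copies in the reference, and these reached at most 0.304 TPM together.

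Slc25a18, a mitochondrial glutamate carrier, was the third gene called higher in BALB/c, at 0.44 (SE 0.12, adjusted p = 0.0222), with 24.9 to 40.8 TPM in B6 and 37.5 to 51.9 TPM in BALB/c. It overlaps Atp6v1e1 on the opposite strand, which reached 550.8 TPM, and no source used here states whether the authors' quantification used strand. A gene on the opposite strand overlapped 14 of the 36 genes, among them Htra1 (Fgfr2, at most 47.45 TPM) and Plcd4 (Usp37 and Zfp142, at most 12.15 TPM). Its adjusted p rose to at most 0.0557 when B6 CRS replicate 12, B6 CRS replicate 13 or BALB/c control replicate 5 was left out in turn, and each of these ended the call. The replicate block ended it as well (0.44, adjusted p = 0.0517). Slc6a11, a GABA transporter, and Slc7a10, a transporter of small neutral amino acids, were not called, at -0.07 (95% interval -0.37 to 0.23) and 0.09 (-0.16 to 0.35).

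None of the 5 identity and cytoskeletal genes was called. Gfap measured 129, 156 and 31.5 TPM in B6 controls, 104, 134 and 100 TPM in B6 CRS, 50.9, 86.6 and 37.3 TPM in BALB/c controls and 36.8, 66.7 and 68.6 TPM in BALB/c CRS. Without B6 control replicate 9, which held the lowest value of all 12, the B6 libraries all lay above the BALB/c libraries. The averaged difference was the largest in size among the 36 genes, -0.82, but its error was also the largest (SE 0.35, 95% interval -1.60 to -0.05, adjusted p = 0.133). Aldh1l1, at 25.0 to 35.3 TPM in B6 and 19.5 to 30.1 TPM in BALB/c, gave -0.26 (95% interval -0.50 to -0.03, adjusted p = 0.117), and S100b, a calcium-binding protein, gave -0.30 (95% interval -0.52 to -0.08, adjusted p = 0.0568). For Sox9, the transcription factor of astrocyte nuclei, the difference was -0.03 (95% interval -0.27 to 0.21), and for Fgfr3, a fibroblast growth factor receptor of the lineage, -0.06 (95% interval -0.38 to 0.26). The signs of Sox9, Fgfr3, Slc6a11 and Gjb6 turned under median-of-ratios scaling, to 0.06, 0.03, 0.03 and 0.04.

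Of the 3 junction genes, Gja1, the main astrocyte connexin, was lower in BALB/c, with a median of 97.3 TPM in B6 (69.2 to 108) and of 66.2 TPM in BALB/c (59.0 to 89.8), a difference of -0.44 (SE 0.11, adjusted p = 0.0196). The call was lost without BALB/c control replicate 10 (adjusted p = 0.0508). Gjb6, the second astrocyte connexin, gave -0.05 (95% interval -0.28 to 0.18), and Cldn10, a claudin, gave -0.25 (95% interval -0.43 to -0.07, adjusted p = 0.0555). The metal-handling genes were not called either. Mt3, the brain metallothionein, gave -0.11 (95% interval -0.28 to 0.06), and Slc39a12, a zinc importer, gave -0.19 (95% interval -0.35 to -0.03, adjusted p = 0.0947).

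Single rows of the table, apparently 1 per transcript, were tested in the same way for the averaged strain difference. Of 117 rows of the 36 genes 19 were lower and 2 higher in BALB/c, while 6.05% of the 46000 tested rows were called in either direction. Itih3 was the 1 gene with called rows in both directions. Its leading row had a mean of 7.41 TPM in B6 and 14.3 TPM in BALB/c (0.90, limma adjusted p = 0.0133). Another of its rows was at 0.85 to 5.24 TPM in the B6 libraries and had a listed value of 0 in each BALB/c library. Both strains were quantified on GRCm38, a C57BL/6J assembly, and whether sequence differences between the strains affected this row or any other strain difference was not tested. A minor row of Ntsr2 held 5.16% to 9.40% of the gene's TPM in B6 and 2.10% to 5.49% in BALB/c.

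The strain difference was then taken separately in handled and in restrained mice, which are different animals. In controls 6 of the 36 genes were lower and 2 higher in BALB/c, while 4.73% of all tested genes were called. The lower genes were Ntsr2 at -0.80 (SE 0.11, adjusted p = 0.00092), Ppp1r3c and Aqp4 at -0.63 each, Gpr37l1 at -0.49, Clu at -0.47 and Aldoc at -0.45, and the higher genes were Itih3 at 0.65 and Kcnj10 at 0.58. After restraint 7 were lower and 2 higher, while 7.70% of all tested genes were called. The lower genes were Hepacam at -0.75, Plcd4 at -0.65, Ntsr2 at -0.53, Clu at -0.52, Htra1 at -0.50, Aldoc at -0.43 and Gpr37l1 at -0.40, and the higher genes were again Itih3 at 0.62 and Kcnj10 at 0.54. The calls shared by both were those of Ntsr2, Aldoc, Gpr37l1, Clu, Kcnj10 and Itih3, 6 genes, and 32 of the 36 genes had the same sign in both.

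Full separation of 3 BALB/c from 3 B6 libraries was common among all tested genes. In controls 20 of the 36 genes were fully lower in BALB/c and 3 fully higher, against 18.7% and 4.16% of all tested genes, and after restraint 19 and 3, against 20.0% and 9.29%. The median of the 36 genes was -0.35 in controls (-0.10 for all tested genes) and -0.29 after restraint (-0.06). The defining genes Gfap (-0.64, adjusted p = 0.543), Aldh1l1 (-0.40, adjusted p = 0.18), Slc1a3 (-0.33, adjusted p = 0.258), Gja1 (-0.39, adjusted p = 0.219) and Slc1a2 (-0.18, adjusted p = 0.559) were not called in controls. After restraint they gave -1.001, -0.13, -0.31, -0.49 and -0.01 in the same order, and Aqp4 gave -0.49 (adjusted p = 0.073), also not called. The number called in controls fell to 3 without B6 control replicate 2, 5 without B6 control replicate 3, 4 without B6 CRS replicate 12, 3, 4 and 2 without BALB/c control replicates 5, 9 and 10, and 5 without BALB/c CRS replicate 13. The number called after restraint was 14 without B6 control replicate 9, 2 and 4 without B6 CRS replicates 12 and 13, and 4 and 3 without BALB/c CRS replicates 12 and 13. The calls over all tested genes moved as well. In controls they went from 553 lower and 224 higher to 271 and 157 without BALB/c control replicate 10. After restraint they went from 875 and 389 to 1317 and 535 without B6 control replicate 9. Without B6 CRS replicate 12 they were 326 and 213.

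Markers of several other cell types also differed between the strains. Their part in the strain difference of the 36 genes was not tested beyond the covariate fits for myelin and striatal neurons. Of all tested genes, 14.3% were called lower and 4.05% higher in BALB/c. All 10 myelin genes (median difference -2.25) and all 8 striatal neuron genes (median -2.38) were called lower in BALB/c. The mean log2 level of the myelin genes was 6.75 to 8.63 in B6 libraries and 4.34 to 6.97 in BALB/c libraries, and no myelin or striatal marker was at 0 in any library. Of the other lists, 3 of 5 oligodendrocyte precursor genes (median -0.70), 6 of 11 microglial genes (median -0.25), 3 of 7 tested choroid plexus and meningeal genes (median -0.30), 1 of 4 tested blood genes (median -1.18) and 1 of 10 endothelial genes (median -0.20) were called lower and none higher. Of 10 general neuronal genes 2 were called lower and 1 higher (median 0.23). The endothelial and general neuronal counts were near the shares of all tested genes. With the myelin level as a covariate, 2 of the 36 genes were called, Kcnj10 at 0.67 (adjusted p = 0.0225) and Ntsr2 at -0.62 (adjusted p = 0.0372). With the striatal level as a covariate 4 were called, Kcnj10 at 0.73, Itih3 at 0.77, Ntsr2 at -0.65 and Aldoc at -0.41. Of all 16423 tested genes, 218 were called lower and 155 higher with the myelin covariate, and 336 and 170 with the striatal covariate. The median of the 36 genes was then -0.25 and -0.23, against -0.09 and -0.15 for all tested genes. Without a covariate these medians were -0.32 and -0.08. The difference of Gfap turned to 0.52 (95% interval -0.29 to 1.33) and 0.31 (-0.64 to 1.26) under these covariates. The covariates differ between the strains, so strain and tissue content cannot be told apart by these fits, whether a gene lost or kept the call.

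B6 control replicate 9 had a mean log2 striatal level of 3.80, within the range of the BALB/c libraries (3.40 to 4.93), and its myelin level, 6.75, was within theirs as well. Both upper ends were those of BALB/c control replicate 9 (4.93 and 6.97). The other BALB/c libraries lay below B6 control replicate 9 on both, reaching at most 3.70 and 5.905. B6 control replicate 9 also stood apart, with the highest mean log2 neuronal level of all 12 libraries (8.77, against 8.28 to 8.54 in BALB/c) and the lowest share of the neuronal RNA Bc1 (8.684%). In it Ntsr2 was at 84.7 TPM and Aldoc at 630 TPM, both above the BALB/c range, and Kcnj10 was at 42.8 TPM and Itih3 at 12.6 TPM, both below it. These genes were called with this library in the fit and separated in all libraries, so the values are a description. Aqp4, Gja1, Apoe and Slc25a18 lay within the BALB/c range there, and Mlc1 and Gfap (31.5 TPM) lay below it.

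**Figure D4:**
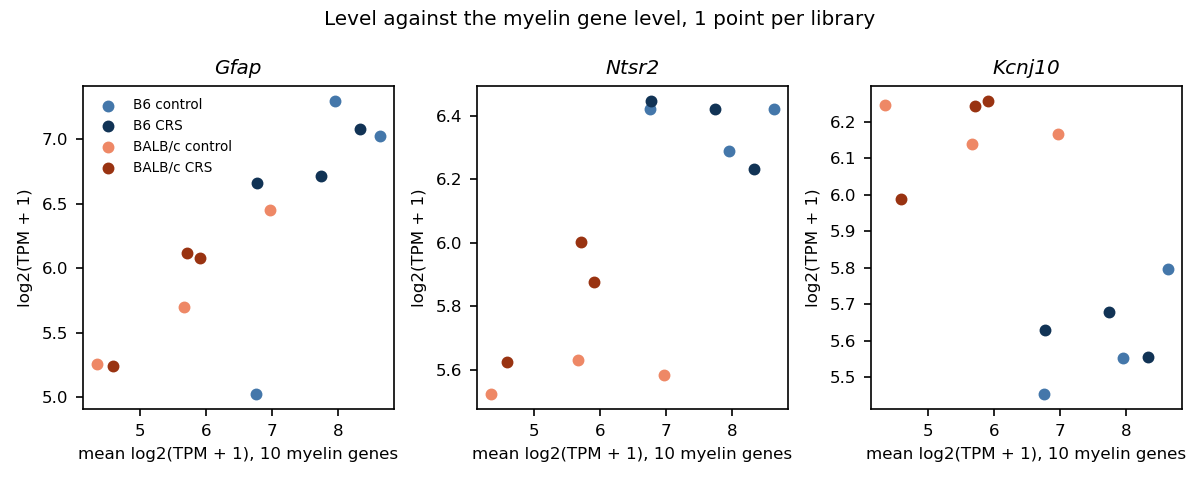
Levels of Gfap, Ntsr2 and Kcnj10 against the mean level of 10 myelin genes. Both axes are log2(TPM + 1) and each point is 1 of the 12 libraries, coloured by group. Gfap tends to be higher in libraries with more myelin RNA, but its lowest value, 31.5 TPM, is that of B6 control replicate 9 (myelin level 6.75). Ntsr2 and Kcnj10, which kept the call with the myelin covariate, form separate strain groups. Both genes separate the strains in all 12 libraries, so the B6 libraries of lowest myelin level (6.75 and 6.77) necessarily lie with the other B6 libraries.

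The study's treatment was tested next. Restraint called 0 of the 36 genes in B6, in BALB/c, averaged over the strains, and for the difference between the strains (limma, Benjamini-Hochberg adjusted). Of all tested genes, 0% were called in B6, 0.00609% in BALB/c, 0.00609% averaged over strains and 0% for the interaction. At an unadjusted p under 0.05 there were 3 of the 36 genes in B6 (4.82% of all tested genes), 2 in BALB/c (3.03%), 3 averaged over strains (5.17%) and 0 for the interaction (2.70%). The intervals had a median half-width of 0.33 on the log2 scale within a strain and 0.23 for the average. The averaged interval of every one of the 36 genes lay within 1 log2 unit of 0.

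The lowest p in B6 was that of Cbs, which measured 24.6, 20.2 and 14.9 TPM in controls and 31.6, 26.8 and 33.5 TPM in CRS. The groups did not overlap, as in 4.63% of all tested genes in that direction, and the difference was 0.62 (95% interval 0.21 to 1.03, adjusted p = 1). In BALB/c Cbs measured 18.6, 15.0 and 16.6 TPM in controls and 16.3, 19.0 and 25.2 TPM in CRS, a difference of 0.24 (-0.17 to 0.65). Lcat measured 13.5, 15.2 and 18.6 TPM in B6 controls and 9.97, 11.6 and 10.0 TPM in B6 CRS, lower in every CRS library, as in 3.70% of all tested genes, at -0.53 (95% interval -0.93 to -0.13, adjusted p = 1). Its BALB/c values of 12.2, 7.83 and 12.1 TPM in controls and 11.7, 11.8 and 8.67 TPM in CRS overlapped, at 0.01 (-0.39 to 0.41). Lcat also had the lowest p for the difference between the strains' restraint effects, 0.55 (95% interval -0.02 to 1.11, adjusted p = 0.9999), followed by Ntsr2 at 0.27 and, in the other direction, Cbs at -0.38 and Plcd4 at -0.28.

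In BALB/c the lowest p was that of Sox9, at 11.6, 9.87 and 11.8 TPM in controls and 13.5, 14.1 and 15.9 TPM in CRS, with no overlap (5.36% of all tested genes in that direction) and a difference of 0.36 (95% interval 0.02 to 0.70, adjusted p = 1). In B6 it was 13.9, 13.1 and 9.01 TPM in controls and 15.8, 13.8 and 13.3 TPM in CRS, which overlapped, at 0.25 (-0.09 to 0.59). Ntsr2 gave 0.26 in BALB/c (0.01 to 0.50) and -0.01 in B6 (-0.25 to 0.23). The members of lowest p below 0 in BALB/c were Plcd4 at -0.15 and Ppp1r3c at -0.14, and in B6, beside Lcat, S100b at -0.39 (-0.70 to -0.08). Without BALB/c CRS replicate 12 the BALB/c values of Plcd4 and Ppp1r3c turned to 7.883e-05 and 0.01. Mlc1 gave 0.26 in B6 (-0.05 to 0.58).

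The defining genes showed no called effect of restraint either. Averaged over the strains, Gfap gave 0.19 (95% interval -0.58 to 0.96), Aqp4 0.19 (-0.05 to 0.42), Gja1 0.22 (-0.03 to 0.46), Slc1a3 0.10 (-0.13 to 0.33), Aldh1l1 -0.03 (-0.27 to 0.21) and Slc1a2 -0.18 (-0.40 to 0.04). The averaged values of lowest p were Cbs at 0.43 (0.14 to 0.72), Sox9 at 0.30 (0.07 to 0.54), S100b at -0.24 (-0.46 to -0.02) and Lcat at -0.26 (-0.54 to 0.02), with an adjusted p of 0.946 for each.

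**Figure D5:**
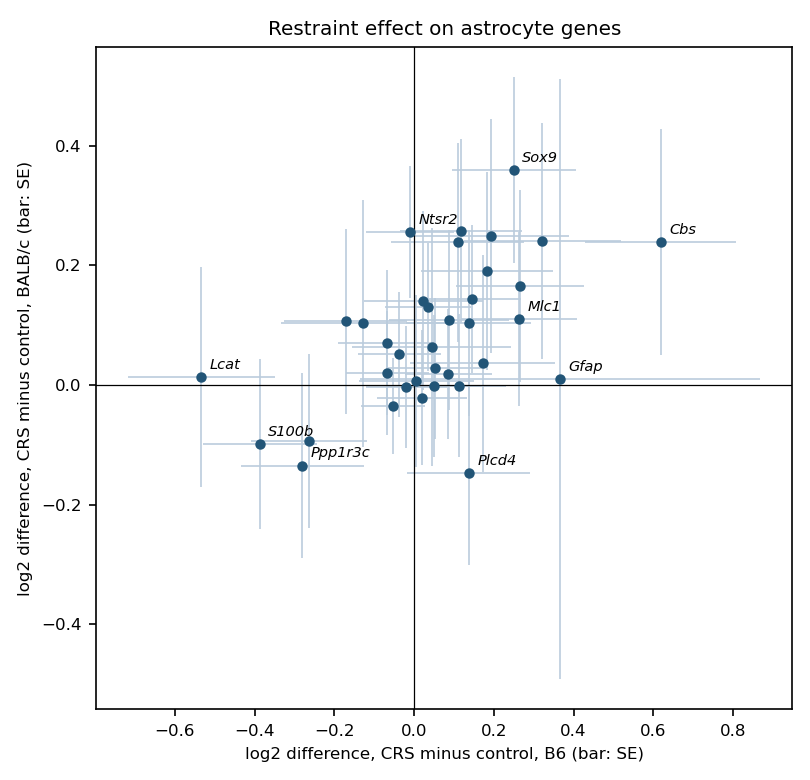
Restraint effect on the 36 astrocyte genes in each strain. The horizontal axis is the log2 difference, CRS minus control, in B6 and the vertical axis the same in BALB/c, with bars of 1 SE. Most points lie near 0 on both axes, and Cbs and Lcat lie farthest out along the B6 axis, at 0.62 and -0.53.

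A second list of 26 astrocyte genes, none of them among the 36, gave 12 lower and 1 higher in BALB/c, averaged over control and CRS, where 14.3% of all tested genes were called lower and 4.05% higher. The median of the list was -0.26, against -0.08 for all tested genes. Its lower members included Sdc4, a syndecan, at -0.89 (adjusted p = 0.000678), Fam107a, an actin-bundling protein, at -0.57, Prodh, a proline oxidase, at -0.55 (Dgcr6, on the opposite strand, reached 72.86 TPM), and Ndrg2 at -0.32. Fabp7, the brain fatty acid binding protein of radial glia and astrocytes, was the gene called higher (0.44, adjusted p = 0.0359). It was also the 1 gene of the whole table called for restraint averaged over the strains, at 1.23 (SE 0.13, adjusted p = 0.00995). Its level was 35.5, 30.3 and 19.5 TPM in B6 controls, 69.8, 74.0 and 87.0 TPM in B6 CRS, 39.6, 44.8 and 46.9 TPM in BALB/c controls and 86.8, 83.2 and 100.9 TPM in BALB/c CRS. Every CRS library lay above every control library of both strains, and the share of all tested genes with this separation was not computed. Fabp7 was given here because earlier results had called it for restraint, so the separation is a description. The call ended without BALB/c control replicate 5 (adjusted p = 0.0624), BALB/c CRS replicate 12 (0.0627) or BALB/c CRS replicate 15 (0.0567), with differences of 1.20, 1.25 and 1.19, and with the replicate block (1.30, adjusted p = 0.351).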

How the data were processed

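RNA of the medial prefrontal cortex was measured in 12 libraries, 3 in each of 4 groups, grouped by sample title. The values are TPM as the authors deposited them, 1 column per library and 147902 rows with a gene name each. Per the labels' protocols the libraries were stranded mRNA libraries read as paired 150 bp reads to about 6 Gb. The submitters' processing notes name cutadapt 2.9, Salmon and GRCm38, an assembly of C57BL/6J. Settings, annotation and use of strand are not given in the sources used here. TPM keeps no depth, so the read depth of a library is unknown and errors come only from the spread among animals.

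TPM was summed per gene name. The 16423 genes that reached 1 TPM in 3 or more libraries entered the fit on log2(TPM + 1), which understates changes of low genes, with limma 3.58.1 (R 4.3.3, intensity trend, 4 group means, 8 residual degrees of freedom). Genes were called at a Benjamini-Hochberg adjusted p under 0.05. Single rows (46000) were tested likewise. Copies (blastn 2.17.0, at least 95% identity over 80% of the shorter transcript), positions and overlaps came from GENCODE M21.

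The members, the 12 further gene lists and the tests were chosen with earlier results of these data known. Called members were named, or the 6 of lowest p per direction beyond 12 calls, with 2 per direction where none was called. The defining genes were always given, and the other members were added to account for all 36. Alternatives changed scaling, filter, pseudocount, covariates, the block and each library. Leaving out B6 control replicate 2 and BALB/c CRS replicate 12 together was chosen after seeing the data.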

Additional observations from a re-analysis of the deposited data

How the results depend on the processing

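In controls the number of the 36 genes called, 8, became 5 after leaving out mitochondrial, Bc1 and ribosomal rows, 4 with no filter, 5 with the replicate block, 1 with the myelin covariate, 3 with the striatal covariate, and 2 to 12 with 1 library left out. After restraint the number, 9, became 5 with the replicate block, 0 with the myelin covariate, 1 with the striatal covariate and 2 to 14 with 1 library left out. The averaged number, 19, became 2 with the myelin and 4 with the striatal covariate, 20 with the replicate block (18 of the 19 and not Slc25a18, whose adjusted p was 0.0517), 16 with both doubted libraries (B6 control replicate 2 and BALB/c CRS replicate 12, chosen after seeing the data) left out, where Acsbg1, Gja1 and Mlc1 lost the call, and 17 to 23 with 1 left out. Over all tested genes the calls changed as well. In controls they went from 553 lower and 224 higher to 162 and 122 (myelin covariate) and 350 and 165 (striatal covariate). After restraint they went from 875 and 389 to 130 and 126 and to 139 and 98. Averaged, they went from 2356 and 665 to 218 and 155 and to 336 and 170, and to 1885 and 570 with the replicate block. Among all called genes the lower share went from 71.17% to 54.11% in controls and from 69.22% to 53.48% after restraint under median-of-ratios scaling, which moved the median of all genes in controls from -0.10 to 0.00. No alternative called any of the 36 genes for restraint or the interaction. The numbers 9, 12 and 13 occur in both strains but mark different animals, whose deviations correlated at -0.242, -0.029 and -0.036.

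Averaged strain differences that turned sign were all of genes not called. Without mitochondrial, Bc1 and ribosomal rows Sox9 gave 0.040, Fgfr3 0.016, Slc6a11 0.0081 and Gjb6 0.024, and under median-of-ratios scaling 0.056, 0.034, 0.026 and 0.042. With the myelin covariate Gfap gave 0.521, Sox9 0.090, Fjx1 -0.166 and Mt3 0.020, and with the striatal covariate 0.312, 0.211, -0.045 and 0.013. Over fits without 1 library Sox9 ranged from -0.121 to 0.023, Fgfr3 from -0.133 to 0.038, Slc6a11 from -0.179 to 0.050, Slc7a10 from -0.014 to 0.167 and Gjb6 from -0.144 to 0.0075. With both doubted libraries left out Sox9 gave 0.046, Fgfr3 0.081 and Gjb6 0.0083, and the restraint effects in BALB/c of Plcd4 and Ppp1r3c gave 7.883e-05 and 0.012, as they did without BALB/c CRS replicate 12 alone, while with 1 library left out they reached down to -0.281 and -0.217. The causes were not tested.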

Other observations

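Genes that rise in reactive astrocytes were counted in lists from earlier injury models. Of all tested genes 14.3% were called lower and 4.05% higher in BALB/c, averaged over control and CRS. Of 8 tested pan-reactive genes 1 was called higher and none lower. Serpina3n, a secreted protease inhibitor, was at 8.01 to 10.9 TPM in the 6 B6 libraries and at 29.9 to 45.9 TPM in the 6 BALB/c libraries, 1.79 higher on the log2 scale (SE 0.11, limma adjusted p = 2.81e-07). Of 10 tested A1 genes 4 were lower in BALB/c, with a median over the list of -0.45, against -0.08 for all tested genes. These were the major histocompatibility genes H2-T23 (-1.03) and H2-D1 (-0.52), the complement inhibitor Serping1 (-0.80) and the guanylate-binding protein Gbp2 (-0.45). None of the 4 overlapped between the strains, while 6.94% of all tested genes were separated in that direction. Whether sequence differences between the strains affected H2-D1 or the other values was not tested. H2-T23, at 6.87 to 31.2 TPM, has 2 near-identical copies in the reference that reached 111.2 TPM together, and A930015D03Rik on the opposite strand reached 91.3 TPM, so its value is uncertain. Of 7 tested A2 genes Tm4sf1 was lower (-0.60) and the prostaglandin synthase Ptgs2 higher (1.07). None of these 3 lists held a gene called for restraint averaged over the strains. The lowest p there was that of Vim, the intermediate filament vimentin, at 0.67 (SE 0.20, limma adjusted p = 0.946).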
